A study of Mus musculus with 4 samples.

Results

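Translation initiation factors are the proteins that bring a messenger RNA, the initiator tRNA and the ribosome together at a start codon. Their genes were taken from an array study of mouse bone marrow cells cultured towards macrophages in space flight or on the ground, as all probe sets whose single gene symbol begins with Eif and a digit from 1 to 6, leaving out the Eif2ak kinases. This gave 120 of 45037 probe sets, for 43 of 18193 genes. A probe set is a group of short oligonucleotides for 1 transcript. The choice used names and no measured value. Another 6 probe sets carried an initiation factor symbol together with a second symbol, among them Eif3j1 with Eif3j2 and Eif4ebp3 with Ankhd1, and these were not used. Eif2s1, Eif4g1 and Eif4ebp3 had been listed for description and were not analysed here.

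Both groups were cultures of marrow pooled from 21 C57BL/6 mice, bred animals more than 8 weeks old with no engineered allele named in the labels. The space flight group was cultured in sealed glass barrels carried on a space shuttle, and the ground control group in parallel barrels kept at the same temperature of 37 °C. Every culture had recombinant macrophage colony-stimulating factor (M-CSF) at 1.5 µg/ml, received more of the same medium on day 6, and was lysed on culture day 15, which was spaceflight day 14 for the flown barrels. Each of the 4 arrays, 2 per group, held RNA of a pool of 2 barrels, chosen by RNA quality from 4 such pools per group. The p-values therefore measure the spread between cultures and arrays of 1 marrow pool, not between animals.

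In the textbook pathway, eIF2 carries the initiator tRNA to the small ribosomal subunit, eIF1 and eIF1A hold that subunit open for scanning, and eIF3 is the large scaffold on which the complex forms. The mRNA is brought in by eIF4F, made of the cap binder eIF4E, the scaffold eIF4G and the helicase eIF4A, and the 4E-BP proteins block it by occupying eIF4E. Growth factors such as M-CSF act on this step through the mTOR kinase, while stress kinases act on eIF2 and so on its exchange factor eIF2B.

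No initiation factor gene passed the test between space flight and ground control. Of the 42 genes bright enough to be tested, 0 were higher and 0 were lower at an adjusted p under 0.05 (limma), where 0.0628% of all 11141 genes tested were called, 0.0449% higher and 0.018% lower. At an unadjusted limma p under 0.05 there were 2 higher and 4 lower members, 14.3% of the 42, beside 14.2% of all genes tested, 6.88% higher and 7.32% lower. The space flight pair lay wholly above the ground control pair for 8 members (19% of them, against 23% of all genes tested) and wholly below for 9 (21.4%, against 22.5%). The median difference, space flight minus ground control on the log2 scale, was −0.01 over the members and 0.02 over all genes tested. Members with a difference above 0 were 20 of 42 (47.6%), against 51.2% of all genes tested. These shares lie near those of all genes tested, but members were brighter than most genes. Among the 2786 brightest genes 22.3% had an unadjusted limma p under 0.05, against 2 of the 27 members there (7.41%). The space flight pair lay wholly above for 23.8% of those genes and 14.8% of those members. It lay wholly below for 28.5% and 18.5%. Among these 2786 genes the 27 members were thus less often apart. Their median level was 12.59, against 11.93 for all 2786, so brightness was not fully matched. The dimmer members were not compared with genes of like brightness. Whether the shares differ was not tested.

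All values are quantile normalized log2 intensities of the brightest probe set of a gene, errors of differences are limma standard errors (SE), and intervals are limma's unadjusted 95% intervals with n = 2 arrays per group. For 28 of the 42 members (66.7%) this interval lay within 1 log2 unit of 0 on each side, against 38.7% of all genes tested. Members were brighter than most genes: among the 2786 brightest genes the share was 74.1%, and among the 27 members there 81.5%. Such an interval excluded a 2-fold difference on the brightest probe set, not on other probe sets of the gene. Eif5 met it, for instance, while another of its probe sets gave 1.23. The median absolute difference was 0.23 for the members and 0.33 for all genes tested. The SD of the difference between replicate arrays was 0.55 in space flight and 0.33 in ground control over the members, against 0.70 and 0.47 over all genes tested.

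**Figure D1:**
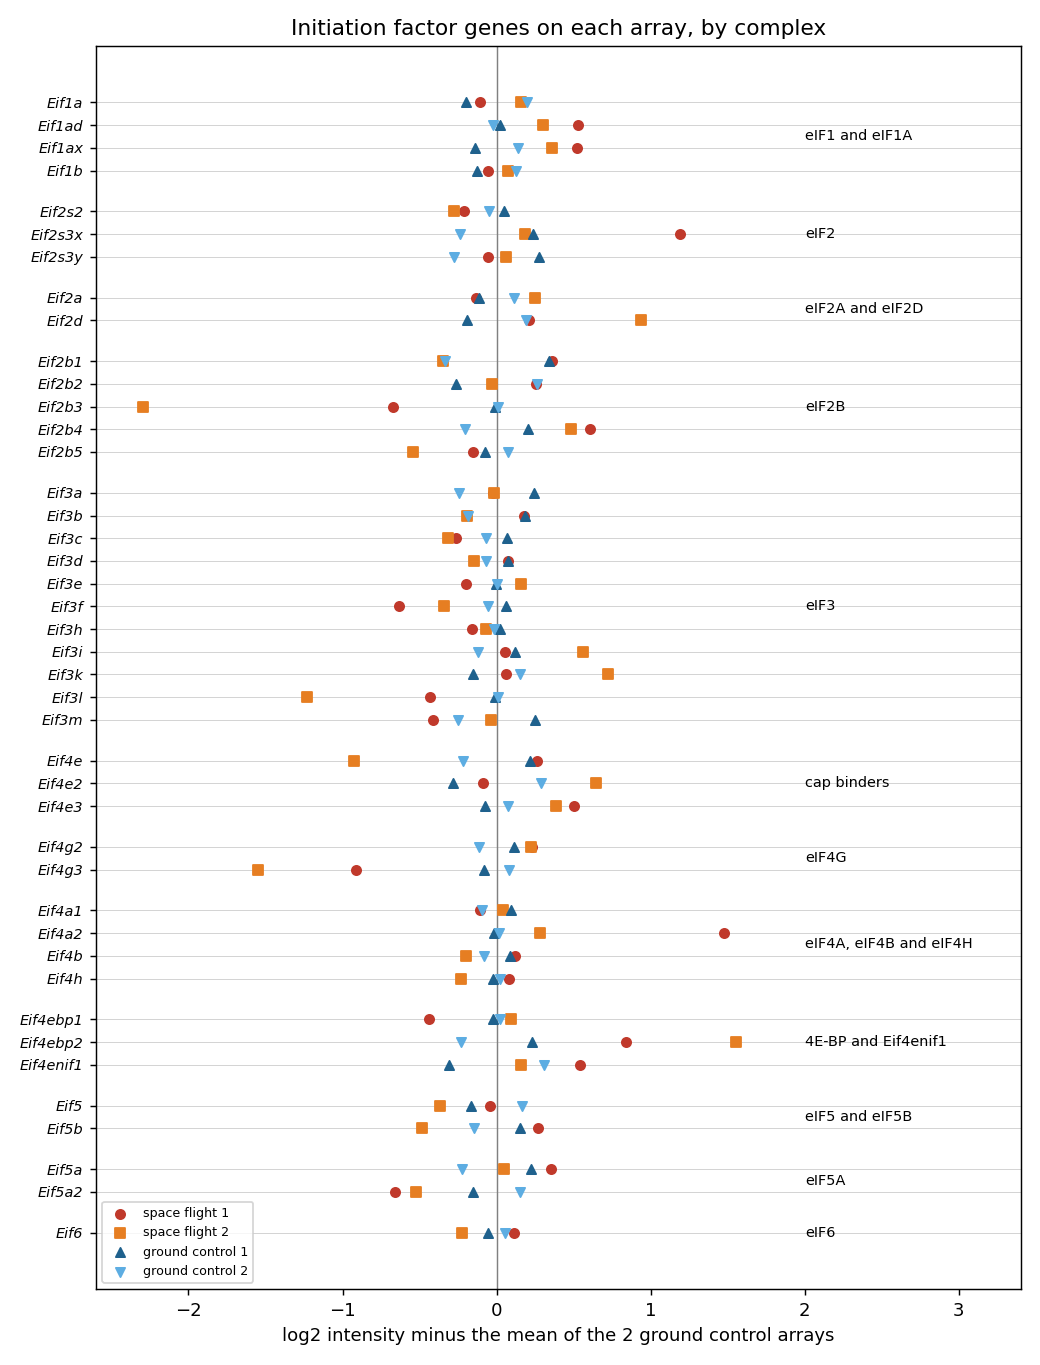
Each row is 1 initiation factor gene, and the horizontal axis gives its log2 intensity on each of the 4 arrays minus the mean of the 2 ground control arrays. Most space flight values lie close to the ground control values; the widest departures are Eif2b3, Eif4g3 and Eif3l to the left and Eif4ebp2 and Eif4a2 to the right.

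RNA quality was low, with an integrity number of 3 per the labels, and it was not even across the arrays. For the Gapdh control, 3' over 5' signal came to 15.2 on space flight array 2 and to 3.33 to 4.13 on the other arrays. The Actb control also put that array highest, at 4.91 against 2.30 to 3.08, but the Tfrc control put it lowest, at 3.47 against 4.96 to 7.84, so the controls did not rank the arrays alike. The cultures also differed in cell type markers, although red cells had been lysed when the marrow was taken. The mean level of 9 neutrophil genes was 11.71 and 12.26 on the space flight arrays and 10.38 and 10.45 on the ground control arrays, and that of 6 erythroid genes was 8.44 and 8.92 against 7.11 and 7.63. Of these erythroid genes 5 had a difference above 0, and Epor had −0.34 ± 0.50 (SE). By their mean over the 4 arrays, the 8 macrophage genes all reached the limit for testing. The means of that list were 10.73 and 11.05 against 11.09 and 11.30. Of the 8 genes, 6 had differences below 0. Fcgr1 (1.02 ± 0.54, SE) and Mertk (0.33 ± 0.50, SE) lay above 0. Fcgr1 had 6.66 and 7.51 against 6.01 and 6.13. Csf1r, the M-CSF receptor, stood at 14.87 and 14.91 against 15.28 and 15.24. All 3 T cell genes on the array lay below the limit for testing, 6.40. The 4 B cell genes on the array had means of 6.26 and 6.94 against 5.82 and 5.93, and only Cd79a reached the limit, with a difference of 0.84 ± 0.50 (SE; limma adjusted p = 0.48). In bulk samples fewer cells of a type and less RNA per cell cannot be told apart. The part of cell types and RNA quality in the values below was not tested.

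The mRNAs of several translation factors are known to begin with a C followed by pyrimidines, the terminal oligopyrimidine (TOP) tract. Through it mTOR controls their own translation. Sequences at the transcription start are therefore shown for Eif2s3x and for the members with an unadjusted limma p under 0.05, except Eif2b3. Eif2b3, with the widest difference, had no listed start. Eif1ax and Eif2b4 had a lower unadjusted limma p than Eif2s3x (0.0629 and 0.0578). Eif5a2, Eif2d and Eif2b4 had wider differences than Eif3f. None of these held such a run, and none is shown. The printed genes are thus not a fair sample of the members for this run. The lines give 30 bases, 15 before the listed start and 15 from it, 5′ to 3′ on the strand of the gene, from RefSeq (GRCm38.p6). Capitals mark the first C within 5 bases of the listed start that is followed by at least 4 pyrimidines, together with that run. A later run that also meets the rule, as in Eif3l, is left in lower case.
Eif3f, chr7:108934400-108934429, plus strand: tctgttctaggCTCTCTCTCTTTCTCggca
Eif3l, chr15:79075208-79075237, plus strand: gcgcggagttCTTCTTCCgctctctcccac
Eif2s3x, chrX:94212637-94212666, minus strand: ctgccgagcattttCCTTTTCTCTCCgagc
Eif4a2, chr16:23107453-23107482, plus strand: ccgcggaaaccccgtaggagcagggcggcc
Eif4ebp2, chr10:61452655-61452684, minus strand: ggtatcgcagcgggacgaccgggcgagagc
Eif4g3, chr4:137993440-137993469, plus strand: aaagctccgagcggccgtcctgccggactg
Such a run was found for Eif3f, Eif3l and Eif2s3x and not in these windows of the other 3. A listed start can be some bases off, so a match describes these letters and no more.

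Of the 43 members, 34 had a start in the RefSeq table. In 2 of the 34 (5.88%) the run began at the listed start itself, against 3.01% of all genes there. Beginning within 5 bases of it, the run was held by 9 of the 34 (26.5%), against 21.2% of all genes there. Among genes tested here the shares within 5 bases were 27.3% of members and 24.1% of all. Among members that were tested, the 9 with the run had a median difference of 0.00 (range −0.83 to 0.69) and the 24 without it −0.03 (range −1.23 to 1.20). Both medians were near 0 and the ranges overlapped.

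The promoters were also searched for CACGTG, the E-box bound by Myc and related factors, which reads the same on both strands, in the 300 bases from 250 before to 50 after the start. It was found for 9 of 34 members (26.5%), against 8.09% of all genes in the table and 12% of the genes tested here. The lines show it, in capitals, for the 3 eIF3 subunits that had it, for Eif4e (the match nearer to its start) and for Eif4a1.
Eif3a, chr19:60790654-60790683, minus strand: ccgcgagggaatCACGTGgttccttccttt
Eif3f, chr7:108934335-108934364, plus strand: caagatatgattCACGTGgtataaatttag
Eif3k, chr7:28981915-28981944, minus strand: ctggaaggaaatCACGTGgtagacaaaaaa
Eif4e, chr3:138527192-138527221, plus strand: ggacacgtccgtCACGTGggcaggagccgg
Eif4a1, chr11:69672595-69672624, minus strand: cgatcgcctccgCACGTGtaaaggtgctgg
The motif began 68 bases before the listed start in Eif3f, 44 before it in Eif3k and 22 after it in Eif3a. The 9 members with the motif had a median difference of −0.03 and the 24 without it 0.00, both near 0.

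Among the factors that prepare the small subunit, all 4 genes grouped here as eIF1 and eIF1A had differences above 0. These ran from 0.01 to 0.44 on the brightest probe sets. Eif1b stood below 0 with values as deposited and with each array shifted to one median. Eif1ax did so with the mean of its probe sets. Eif1a had 0.03 ± 0.26 (SE) on its brightest probe set, of mean level 11.30. Its other probe set, nearly as bright at 11.21, gave −0.60 ± 0.25 (SE). There the space flight arrays had 10.74 and 11.09, both below 11.41 and 11.61 in ground control. The sign for Eif1a thus depended on the probe set. Eif1ax, the X-linked gene for eIF1A, had 12.54 and 12.38 in space flight and 11.88 and 12.16 in ground control. Its groups did not overlap, and its difference of 0.44 ± 0.21 (SE) did not pass (limma adjusted p = 0.378). Dimmer probe sets of Eif1ax gave −0.43 and −0.21. Eif1b, which encodes a close relative of the scanning factor eIF1, had 11.37 and 11.50 against 11.30 and 11.55, overlapping, with a difference of 0.01 (interval −0.52 to 0.54).

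For the tRNA carrier eIF2, 3 subunit genes were tested. Eif2s2, the beta subunit, had 12.96 and 12.89 in space flight against 13.22 and 13.12 in ground control, a difference of −0.24 ± 0.17 (SE; limma adjusted p = 0.569). The 5 other probe sets of Eif2s2 ran from −0.24 to 0.64. The gamma subunit is made from a gene on each sex chromosome. Eif2s3x, on the X, had 11.82 and 10.81 against 10.86 and 10.39. The groups overlapped because space flight array 2 lay below ground control array 1, and the difference was 0.69 ± 0.35 (SE; limma adjusted p = 0.403). The other probe sets of Eif2s3x gave 0.84 and 1.14, the same sign. Eif2s3y, on the Y, had 10.21 and 10.33 against 10.54 and 9.99, a difference of 0.00 (interval −0.65 to 0.66). Without space flight replicate 2 the X copy stood at 1.18 and passed (limma adjusted p = 0.0102), and without space flight replicate 1 it stood at 0.18.

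eIF2A and eIF2D are factors that can place the initiator tRNA without eIF2. Eif2a had 9.54 and 9.93 in space flight against 9.56 and 9.79 in ground control. Eif2d had 9.93 and 10.66 against 9.53 and 9.91, with a difference of 0.57 ± 0.33 (SE; limma adjusted p = 0.463). The value was 0.21 when space flight array 2 was left out and 0.94 without array 1, and it passed in neither. Its 3 other testable probe sets gave 0.05, −0.29 and −0.42, so the sign depended on the probe set.

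eIF2B recharges eIF2 with GTP and is the step that the stress kinases slow. Its 5 subunit genes spread more widely than those of any other complex here, from −1.48 to 0.55, with a median of 0.00. Eif2b3, the gamma subunit, had 7.85 and 6.23 in space flight and 8.52 and 8.53 in ground control. Space flight array 2 was the lowest of the 4, and the ground control arrays almost coincided. The difference was −1.48 ± 0.52 (SE; unadjusted p = 0.0159, limma adjusted p = 0.225), −0.69 when space flight array 2 was left out and −2.27 without array 1, where it passed (limma adjusted p = 0.000677). As deposited, its intensities were 217.2 and 75.3 against 361.2 and 343.5, near the dim end of the members, and it has no other probe set. Eif2b4, the delta subunit, pointed the other way, with 11.50 and 11.37 against 11.10 and 10.68. Its difference was 0.55 ± 0.26 (SE; limma adjusted p = 0.369), and its groups did not overlap. Eif2b1 and Eif2b2 had differences of 0.00 and 0.11, and Eif2b5, the catalytic subunit, −0.35.

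eIF3, the scaffold, was represented by 11 subunit genes, the most of any complex. Of these, 9 had a difference below 0 and 2 above, with a median of −0.04, where 51.2% of all genes tested had a difference above 0. That count was 7 under cyclic loess, as deposited and over the mean of a gene's probe sets, and 5 without ground control replicate 1. For 4 of the 11 (36.4%, against 22.5% of all genes tested) the space flight pair lay wholly below the ground control pair. For 0 it lay wholly above (against 23%). All of these subunit genes but Eif3m were among the 2786 brightest genes, which are the closer comparison. Of those genes 48% had a difference above 0, 28.5% lay wholly below and 23.8% wholly above. On the brightest probe sets, the unadjusted intervals of 10 of the 11 subunit genes (90.9%) excluded a 2-fold difference. The share was 74.1% among the 2786 brightest genes, and whether the shares differ was not tested. Over the eIF3 genes the SD of the difference between replicate arrays was 0.43 in space flight and 0.24 in ground control. The intervals assume 1 variance for both groups.

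Eif3f, a subunit with a deubiquitinase-like fold, had 13.68 and 13.97 in space flight and 14.37 and 14.26 in ground control. Both space flight values were lower. The deposited intensities were 12517.7 and 18724.3 against 19207.0 and 18849.9, so that space flight array 2 lay close to the ground control arrays before quantile normalization. The difference was −0.49 ± 0.16 (SE; unadjusted p = 0.0101, limma adjusted p = 0.193), and −0.31 with values as deposited. Without space flight replicate 2 it was −0.59 and passed (limma adjusted p = 0.0271).

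Eif3l had 11.88 and 11.08 in space flight and 12.30 and 12.32 in ground control. Here space flight array 2 was again the lower one. The difference was −0.83 ± 0.28 (SE; unadjusted p = 0.0125, limma adjusted p = 0.207), −0.42 when space flight array 2 was left out, and −1.24 without array 1, where it passed (limma adjusted p = 0.00275). A dimmer probe set of the gene gave 0.42. Eif3c, a core subunit, had 13.82 and 13.76 against 14.15 and 14.01, and its 4 probe sets all lay between −0.32 and −0.23. Eif3a, the largest core subunit, had 14.01 and 14.02 against 14.29 and 13.80, a difference of −0.02 (interval −0.42 to 0.37). Dimmer probe sets of Eif3a gave −0.27, 0.45 and −0.73.

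The highest eIF3 difference was that of Eif3k, a peripheral subunit, with 12.45 and 13.11 in space flight against 12.24 and 12.54 in ground control. The groups overlapped, the difference was 0.39 ± 0.25 (SE; limma adjusted p = 0.509), and it stood at 0.0607 when space flight array 2 was left out. Among the fits with 1 array left out it passed only without space flight replicate 1, at 0.74 (limma adjusted p = 0.0431). Eif3i, the other subunit above 0, had 0.31 ± 0.20 (SE). On their brightest probe sets, the remaining subunits Eif3b, Eif3d, Eif3e, Eif3h and Eif3m had differences from −0.23 to −0.01. For Eif3e this was −0.02, at a mean level of 13.74. Another probe set of Eif3e, nearly as bright at 13.32, gave −0.53 ± 0.17 (SE). There space flight had 13.18 and 12.92, both below 13.61 and 13.55 in ground control. A further one, at 13.03, gave 0.24 ± 0.19 (SE), so the sign for Eif3e depended on the probe set. A dimmer probe set of Eif3m gave 0.22.

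**Figure D2:**
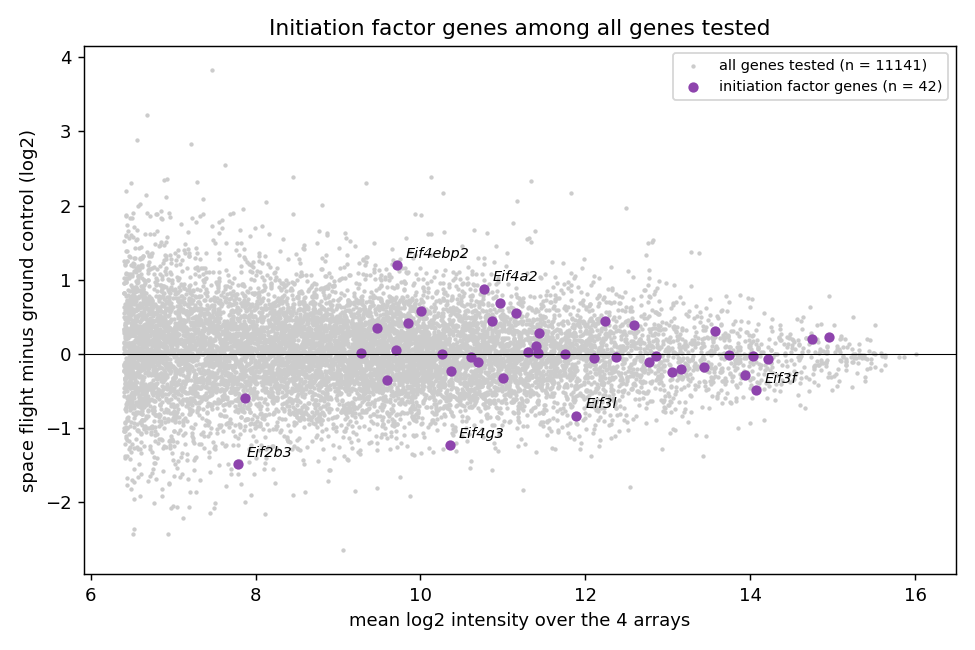
Each point is a gene; the horizontal axis is its mean log2 intensity over the 4 arrays and the vertical axis its space flight minus ground control difference in log2 units. The 42 initiation factor genes, in purple, lie within the cloud of all 11141 genes tested, and the 6 with an unadjusted limma p under 0.05 are named.

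Of the cap binders, Eif4e had 11.43 and 10.24 in space flight and 11.38 and 10.95 in ground control. The groups overlapped, and space flight array 2 alone was low. The difference was −0.33 ± 0.37 (SE; limma adjusted p = 0.731, interval −1.15 to 0.49), 0.26 when space flight array 2 was left out and −0.93 without array 1, where it passed (limma adjusted p = 0.0439). The 3 dimmer probe sets gave −0.21, 0.62 and 0.69, so no direction can be given for this gene. Eif4e3 had 11.14 and 11.03 against 10.57 and 10.72 without overlap, a difference of 0.44 ± 0.25 (SE; limma adjusted p = 0.461), and −0.66 on its other probe set. Eif4e2, a cap binder that does not join eIF4G, had a difference of 0.28 and probe sets from −0.62 to 0.88.

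The scaffold genes pointed in opposite directions. Eif4g3, which encodes the eIF4GII form, had 10.06 and 9.42 in space flight and 10.89 and 11.05 in ground control. Both space flight values were lower by more than the spread within either group, and the ground control mean was 2.35-fold that of space flight. The difference was −1.23 ± 0.30 (SE; unadjusted p = 0.00205), and its limma adjusted p of 0.123 was the lowest of the members. It was −0.91 when space flight array 2 was left out and −1.55 without array 1, where it passed (limma adjusted p = 0.00152). Its other testable probe sets, both dimmer, gave 0.32 and 0.45, and the mean of all its probe sets gave −0.29 (limma adjusted p = 0.736). Eif4g2, which encodes a form that lacks the eIF4E site, had 15.07 and 15.06 against 14.96 and 14.73, a difference of 0.22 ± 0.13 (SE; limma adjusted p = 0.452, interval −0.05 to 0.50).

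The helicase gene Eif4a1 had 12.76 and 12.91 in space flight and 12.97 and 12.78 in ground control, and its difference was −0.03 (interval −0.45 to 0.38). Its paralog Eif4a2 had 11.80 and 10.61 against 10.31 and 10.34. Space flight array 1 was the high one, while array 2 lay nearer to the ground control arrays. The difference was 0.88 ± 0.36 (SE; unadjusted p = 0.0351, limma adjusted p = 0.311), 0.29 when space flight array 1 was left out and 1.46 without array 2, where it passed (limma adjusted p = 0.00159). The 2 other probe sets of Eif4a1 gave 0.81 and 0.50. The helicase partner Eif4h had 14.33 and 14.02 against 14.23 and 14.27, overlapping, with a difference of −0.07 (0.08 with values as deposited). Eif4b, the other partner, had −0.04 on its brightest probe set, of mean level 10.61. Its other probe sets, at 10.31 and 9.96, gave 0.66 ± 0.37 (SE) and 0.34 ± 0.45 (SE), of the other sign. Eif4a3, a helicase of the exon junction complex, was the 1 member not tested, since its only single-symbol probe set lay below the limit at 5.61 and 5.61 against 5.00 and 4.70. Another probe set that lists Eif4a3 with Gm5576 had a mean of 11.84.

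Of the proteins that hold eIF4E back, Eif4ebp1 had 13.09 and 13.62 in space flight and 13.50 and 13.55 in ground control, overlapping, with a difference of −0.17 ± 0.20 (SE; limma adjusted p = 0.737). Eif4ebp2 had 9.96 and 10.67 against 9.34 and 8.89. Both space flight values were higher, and the mean was 2.30-fold that of ground control. The difference was 1.20 ± 0.34 (SE; unadjusted p = 0.00505, limma adjusted p = 0.154), the highest of the members. It was 0.85 when space flight array 2 was left out and 1.56 without array 1, where it passed (limma adjusted p = 0.00305). Other testable probe sets of Eif4ebp2 gave −0.14 and 0.34, and the mean of all its probe sets gave 0.16 (limma adjusted p = 0.862). Eif4enif1, the eIF4E transporter, had a difference of 0.35 ± 0.33 (SE).

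On their brightest probe sets none of the late factors reached an unadjusted p under 0.05. Eif5, which triggers GTP hydrolysis by eIF2, had 13.21 and 12.89 in space flight against 13.09 and 13.42 in ground control, a difference of −0.20 (interval −0.64 to 0.23). Its 4 other probe sets gave 1.23, 0.49, 0.06 and −0.20, the first with an unadjusted p of 0.00904 (limma adjusted p = 0.252 over all probe sets). Eif5b, the subunit joining factor, had 11.02 and 10.27 against 10.90 and 10.61, overlapping. Eif6, which keeps the large subunit apart until it is needed, had 12.25 and 11.91 against 12.08 and 12.19, a difference of −0.06 (interval −0.54 to 0.43). Eif5a, whose protein carries the polyamine-derived residue hypusine and aids peptide bond formation, had 15.00 and 14.69 against 14.87 and 14.42, a difference of 0.20 ± 0.17 (SE). Its paralog Eif5a2 had 7.51 and 7.64 against 8.01 and 8.32 without overlap, with −0.59 on each of its probe sets (limma adjusted p = 0.511).

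**Figure D3:**
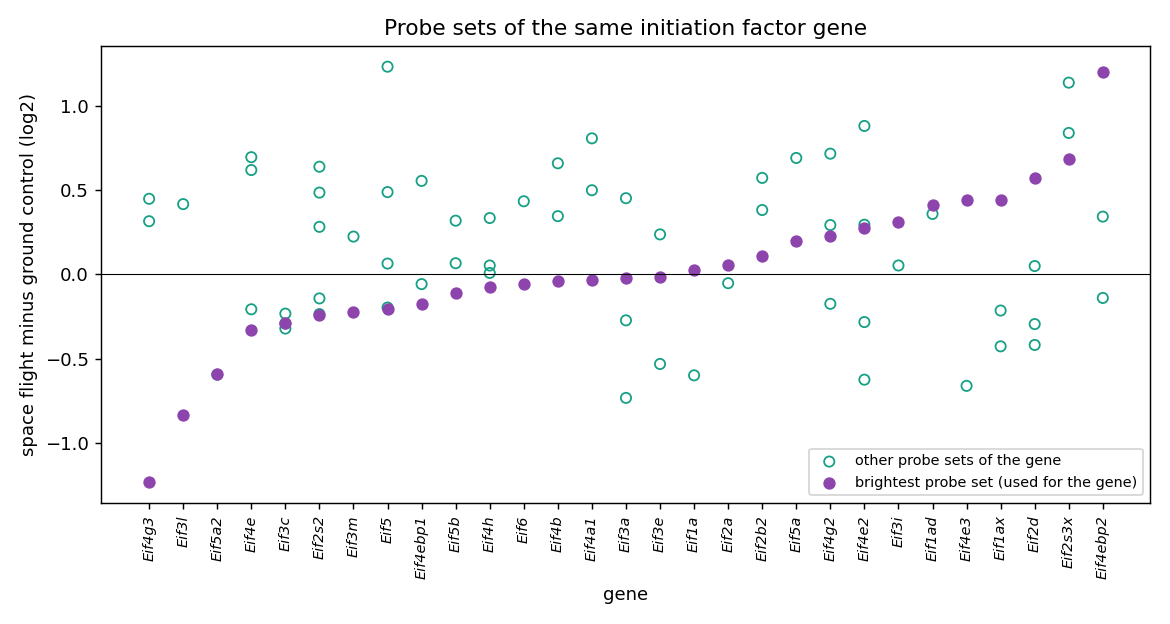
For the 29 initiation factor genes with 2 or more testable probe sets, the vertical axis gives the space flight minus ground control difference (log2) of each probe set; filled points are the brightest probe set and open points the others. Points of both signs are seen for 22 genes, including Eif4g3 and Eif4ebp2, whose open points lie far from the filled one.

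Probe sets of 1 gene often disagreed. Of the 120 member probe sets 103 were testable, and 0 passed limma's test at an adjusted p under 0.05 over all 22519 testable probe sets, of which 0.0488% were called, 0.0444% higher and 0.00444% lower. At an unadjusted p under 0.05 there were 6 higher and 6 lower, 11.7% of the members beside 12% of all (5.43% higher and 6.58% lower). The arrays of the groups were fully apart for 26 probe sets above (25.2%, against 20.7% of all) and 16 below (15.5%, against 22.5%), and 58 of the 103 had a difference above 0 (56.3%, against 48.6%). Of the 29 genes with 2 or more testable probe sets, 22 (75.9%) had differences of both signs, against 49.9% of 4869 such genes overall. Among genes with 3 or more the shares were 84.2% of 19 members and 66% of all. The 7 genes with 1 sign were Eif1ad, Eif2b2, Eif2s3x, Eif3i and Eif5a above 0 and Eif3c and Eif5a2 below it. Only Eif2s3x of these had a probe set with a difference over 1, at 1.14.

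With 1 space flight array left out, members were called. Without space flight replicate 1 limma called 2 higher (Eif3k, Eif4ebp2) and 4 lower (Eif2b3, Eif3l, Eif4e, Eif4g3), 14.3% of the members, beside 9.5% of all genes. Without space flight replicate 2 it called 2 higher (Eif2s3x, Eif4a2) and 1 lower (Eif3f), 7.14% beside 6.91%. No member was called in both fits. The lone array is then assumed to vary like the ground control arrays, which lie closer together. Without either ground control array 0 members were called, beside 0.0539% and 0.359% of all genes, with 6 and 4 members at an unadjusted p under 0.05.

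Other genes of the pathway were described from a list of 30 regulators and partners, of which 29 were tested. At an adjusted p under 0.05 limma called 0 of them. An unadjusted p under 0.05 was seen for 3 higher and 3 lower genes, 20.7% beside 14.2% of all genes tested. The median difference was −0.09.

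Ppp1r15a, the stress-induced phosphatase subunit that restores eIF2, had 11.89 and 11.57 in space flight and 10.61 and 10.12 in ground control. The groups were well apart, with a difference of 1.36 ± 0.27 (SE; unadjusted p = 0.000508, limma adjusted p = 0.091), the closest of the list to the threshold. Its constitutive counterpart Ppp1r15b had −0.09.

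The kinases that phosphorylate eIF2 differed among themselves. Eif2ak1, the haem-regulated kinase, had 9.61 and 9.58 in space flight against 8.31 and 8.84 in ground control, a difference of 1.02 ± 0.32 (SE; limma adjusted p = 0.192). Other testable probe sets of this gene gave −0.55 and 0.53. Eif2ak4, which senses amino acid shortage, had 8.29 and 8.87 against 9.99 and 9.82, a difference of −1.33 ± 0.33 (SE; limma adjusted p = 0.123), and −0.74 on its other probe set. Eif2ak2, the kinase that senses double-stranded RNA, had 6.70 and 8.05 against 7.42 and 7.12, a difference of 0.10 ± 0.52 (SE) with the space flight arrays on either side of the others. Eif2ak3, the kinase of the endoplasmic reticulum, had 9.12 and 8.51 against 9.09 and 9.37, a difference of −0.42 ± 0.34 (SE).

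Pabpc1, the poly(A) binding protein that joins eIF4G at the 3' end, had 14.74 and 14.75 in space flight and 15.26 and 15.20 in ground control. Its groups were each tight and did not overlap, with a difference of −0.49 ± 0.12 (SE; limma adjusted p = 0.115), but a much dimmer probe set gave 1.04. On the mTOR side, Tsc2, an inhibitor, had 7.36 and 7.62 against 8.29 and 8.70 (difference −1.00 ± 0.37, SE; limma adjusted p = 0.26). Akt1s1, another inhibitor of the complex, had 9.24 and 8.19 against 7.03 and 7.70 (difference 1.35 ± 0.45, SE; limma adjusted p = 0.205). The kinase gene Mtor itself had −0.08 ± 0.31 (SE).

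**Figure D4:**
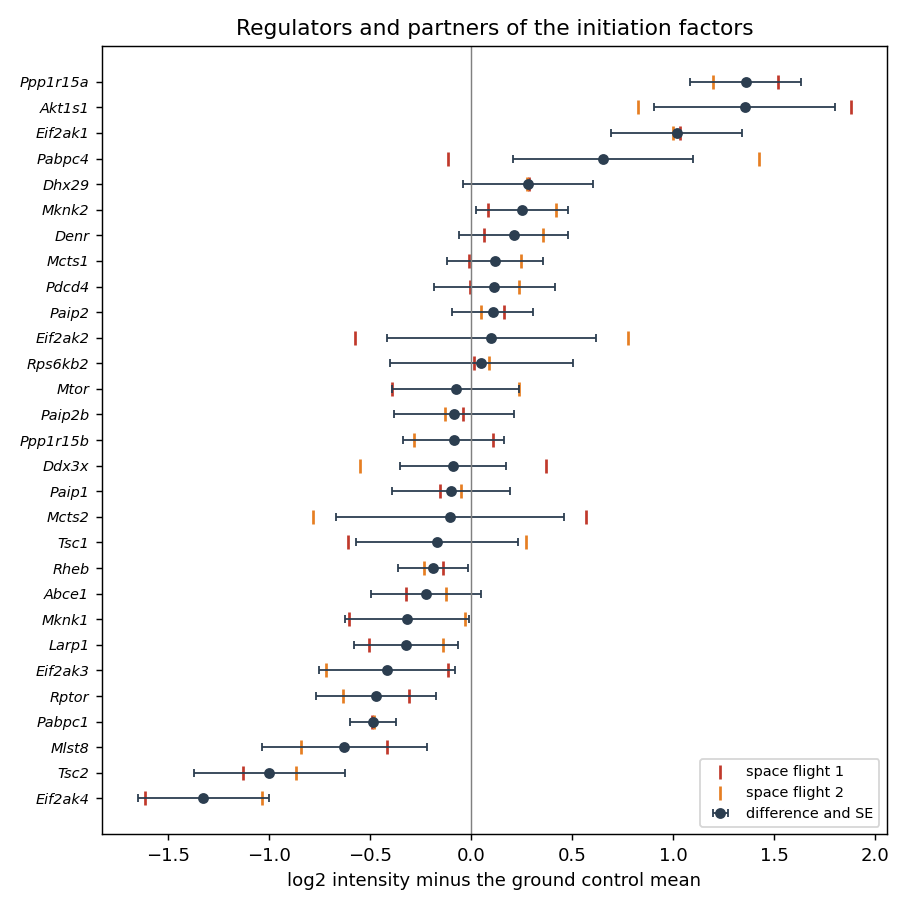
Each row is 1 of the 29 tested regulators and partners; points give the space flight minus ground control difference on the log2 scale with its limma SE, and ticks the 2 space flight arrays relative to the ground control mean. Ppp1r15a, Akt1s1 and Eif2ak1 stand highest and Eif2ak4 and Tsc2 lowest, and none passed the test.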

How the data were processed

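RNA of 4 culture pools was amplified in 2 rounds, biotin labelled and hybridised to Affymetrix mouse whole-genome arrays, per the labels' protocols. The deposited intensity values are linear, 1 per probe set and array; GCOS is named in the submitters' processing notes, while its version and how it summarised and scaled the probes are not stated. The mean intensity trimmed by 2% at each end was 500.004 on every array. From these, log2(intensity + 16) was computed for the 45037 probe sets that are not controls and quantile normalized. Because of the added 16, differences of dim genes come out too small. Genes were named by probe sets with a single symbol in the platform annotation (34945), each gene by its brightest. The 11141 genes whose mean reached 6.40, the median of all probe sets, were tested with limma 3.58.1 in R 4.3.3 (lmFit, eBayes with an intensity trend, two-sided, Benjamini-Hochberg over all of them, threshold 0.05). The fit had 2 residual degrees of freedom (10.4 after moderation), and an exact two-sided test of so few arrays has 0.333 as its smallest p. The number of arrays limits the precision. On simulated data of 11141 genes with 200 changed, this comparison recovered 28.5% of changes of 1 log2 unit and 84.5% of changes of 2. False calls were 7 and 10. The simulated noise was normal, independent between genes and equal in both groups, with limma's moderated SD. The real space flight pair varied more than the ground control pair, so these shares need not hold for the real arrays.

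The members and lists were chosen with earlier results of these data known. Values on every array are given for a fixed set of factors, for members with an unadjusted p under 0.05 and for the highest and lowest member of each complex; values of other genes, such as Eif3a, Eif3c, Eif2s3y, Eif4a3, Ppp1r15b and Mtor, were chosen after they were seen. Alternatives changed the array scaling, the pseudocount, the filter, the trend, the probe sets, the replicate block and the arrays used. All 43 member genes were found by identifier in RefSeq (GRCm38.p6), used for names and the printed sequences.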

Additional observations from a re-analysis of the deposited data

How the results depend on the processing

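The number of member genes called was 0 under the scaling, pseudocount, filter, trend and probe set alternatives, and 0 to 6 with 1 array left out; for probe sets it was 0 to 13, with 11 without space flight replicate 1 (beside 11.5% of all probe sets) and 13 without replicate 2 (beside 7.49%). With the replicate block it was 2 genes (Eif4ebp2 higher, adjusted p = 0.0393; Eif4g3 lower, adjusted p = 0.0195) and 1 probe set, beside 3.89% of all genes and 1.48% of all probe sets; the replicate numbers are only shared numbers, since all cultures came from 1 marrow pool, and deviations of same-numbered arrays correlated at 0.06 over genes. The median difference of the members was −0.22 with each array shifted to one median, which moved the median of all genes to −0.16, 0.10 with the mean of all probe sets of a gene, and −0.0448 to 0.0547 with 1 array left out. None of the differences that changed sign was called with all 4 arrays; Eif4e passed without space flight replicate 1 and had the other sign without replicate 2. With values as deposited Eif1b stood at −0.025 and Eif4h at 0.0773, and with each array shifted to one median Eif1b at −0.23 and Eif2a at −0.18. With the mean of all probe sets Eif1ax stood at −0.0663, Eif2s2 at 0.13, Eif4a1 at 0.42, Eif4e at 0.19, Eif4e3 at −0.11, Eif4ebp1 at 0.11, Eif4h at 0.41, Eif5 at 0.28, Eif5b at 0.0918 and Eif6 at 0.19. Without the _s_at and _x_at probe sets, which can bind other transcripts, Eif2a stood at −0.0524 and Eif4h at 0.33. With 1 array left out the ranges were −0.12 to 0.14 for Eif1b, −0.14 to 0.25 for Eif2a, −0.13 to 0.0567 for Eif4a1, −0.93 to 0.26 for Eif4e, −0.42 to 0.10 for Eif4ebp1, −0.24 to 0.0782 for Eif4h, −0.0254 to 0.43 for Eif5a, −0.49 to 0.26 for Eif5b and −0.23 to 0.11 for Eif6. The cause was not tested.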
